A study of Mus musculus with 6 samples.

Results

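The genes described here encode microtubules, the motors that move along them, the proteins that anchor the cytoskeleton to the muscle membrane, and the centrosome and cilium. They were chosen by gene symbol from the table of siH19 against siCon myotubes that the authors deposited, through prefixes such as Kif, Dyn, Tub, Myo, Dmd, Cep and Ift. The choice found 44 of the 3019 listed features, 2549 of which carry a gene symbol. C3H cells are mouse myoblasts that fuse and become multinucleated myotubes when serum is reduced. Cells at 40 h of differentiation were transfected with a control siRNA (siCon, labelled siControl, 3 libraries) or with an siRNA against the long noncoding RNA H19 (siH19, 3 libraries), and were harvested 48 h later, a stage that the labels call day 4. Both groups derive from 1 line and carry no other treatment, and the labels do not say whether the 3 libraries of a group came from separate cultures.

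The measured quantity was the log2 FPKM of each group (a level corrected for transcript length and for the number of mapped fragments, so that genes can be compared with each other). The authors' table gives 1 value for the 3 libraries of a group, rounded to 2 decimals. The depth of each library and the spread between libraries are therefore unknown, no test across libraries was run, and every difference below is a difference of the authors' group values, siH19 minus siCon, on the log2 scale. All 3019 listed features are marked as significant by the authors. A gene that is absent from the list may have been unchanged, too low or not tested, and the smallest listed difference of a feature with a symbol was 0.31 in size. The siRNA target H19 had 11.20 on the log2 FPKM scale in siCon and 7.50 in siH19, or 7.69% of the siCon level. Of 11 genes used to check the muscle identity of the cells, 8 were listed, with Myh3 and Myh1 in 1 shared feature, among them Acta1 (skeletal actin) at a log2 FPKM of 11.30 in siCon and Myog (myogenin) at 7.79. Those muscle genes moved with the comparison, with differences from 0.44 for Tnnt1 to 1.43 for Myog, and their part in the differences below was not tested. In these bulk libraries, a change in the mix of myotubes and unfused cells and a change in RNA per cell cannot be told apart.

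Microtubules are hollow polymers of alpha and beta tubulin. In a dividing or resting cell they grow from the centrosome, whose older centriole can form the base of a primary cilium. Cilia are built by intraflagellar transport (IFT), in which the IFT-A and IFT-B protein complexes are carried by kinesin-2 to the tip and by cytoplasmic dynein 2 back to the base. When myoblasts fuse, microtubules are rearranged along the length of the myotube and nucleate from the nuclear envelope, and dystrophin and its partners tie the cortical cytoskeleton to the membrane and the matrix.

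The direction of the listed genes varied between families. All 7 listed IFT genes and 7 of 8 listed centrosomal Cep genes were lower in siH19, whereas all 4 listed tubulins, all 4 listed genes for microtubule-associated proteins and stathmins that the prefixes take in, both listed plakins and both listed dystrophin complex genes were higher; with the centring described next, the microtubule-associated group lost this direction and 2 tubulins and 1 dystrophin complex gene turned lower. The listed kinesins were divided into 3 higher and 3 lower, the myosins into 4 and 1 and the dyneins into 1 and 5, or 1 and 5, 3 and 2 and 0 and 6 with that centring, and no difference between families was tested. Among the 44 genes, 21 were higher and 23 lower, so that 47.7% were higher, beside 60.1% of all listed features with a symbol. The median difference was -0.33, with a range from -2.37 for Myo7b to 0.98 for Dmd, whereas the median over all listed features with a symbol was 0.41. When that median was subtracted from every difference, 10 of the 44 stayed higher, 2 stood at 0 and 32 were lower, with values compared at 2 decimals. The median is itself taken over a list that holds called features alone, so it is no measured offset between the groups.

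**Figure D1:**
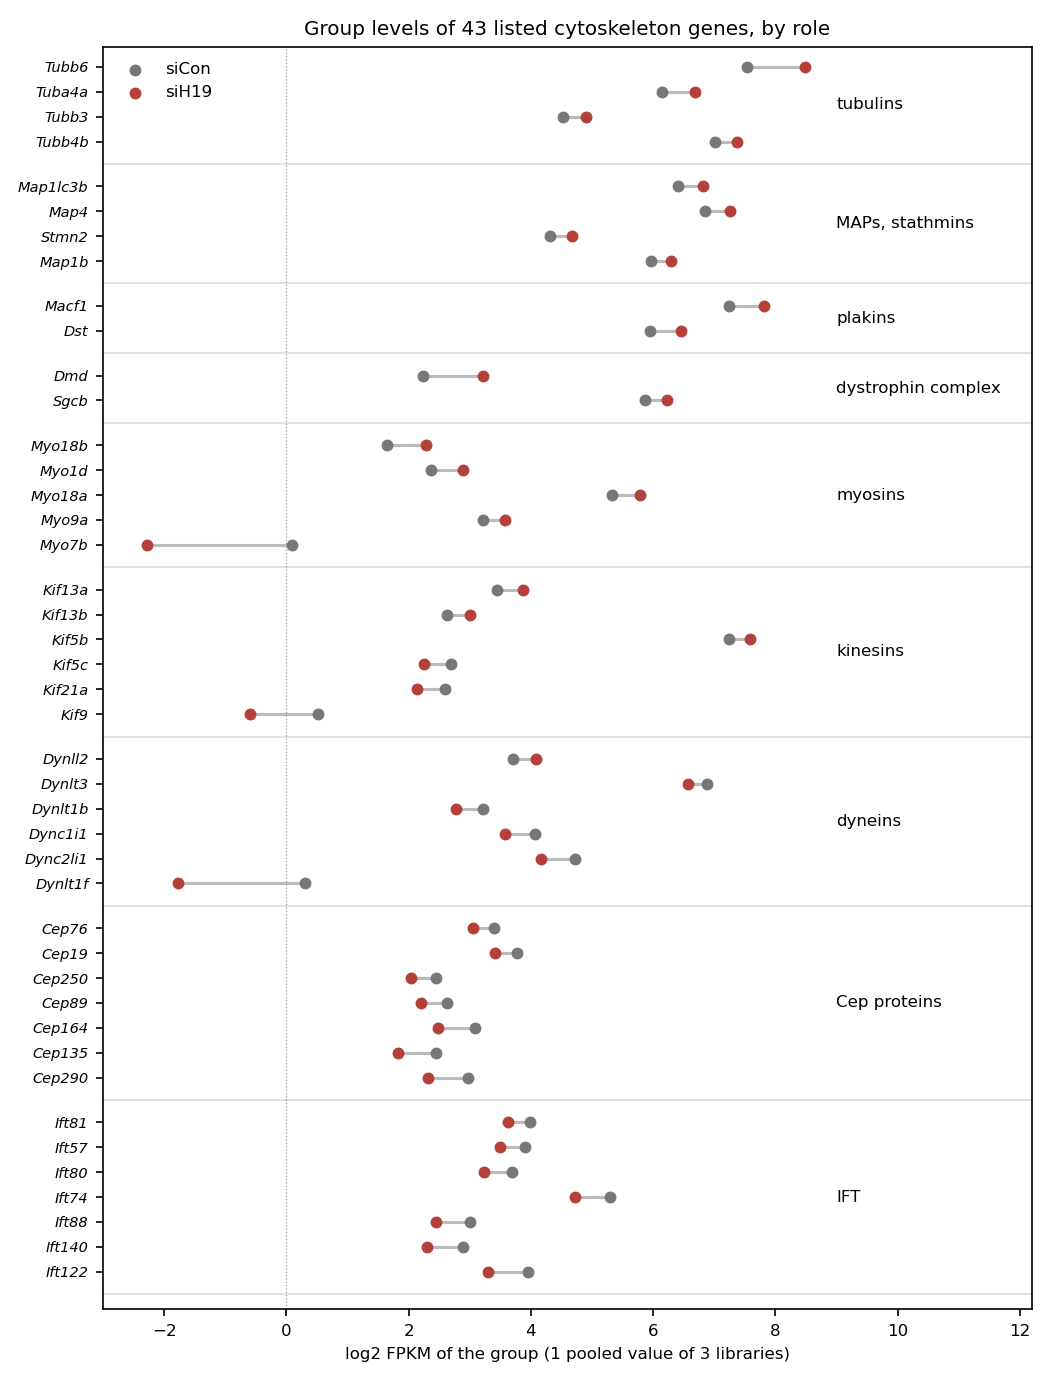
Log2 FPKM of 43 of the 44 genes in siCon (grey) and siH19 (red), with 1 pooled value per group and lines joining both values of a gene; no error bars exist for these values. Every siH19 point of the IFT genes lies left of its siCon point, and the tubulin points lie to the right, with Tubb6 moving from 7.54 to 8.49.

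A difference of at least 1.5-fold in size (0.585 on the log2 scale) was reached by 4 genes in the higher direction and by 8 in the lower. The 4, which include Dmd, Tubb6 and Myo18b, were 9.09% of the 44 genes, beside 30.8% of all listed features with a symbol. The 8 were Myo7b, Dynlt1f, Kif9, Cep290, Ift122, Cep135, Cep164 and Ift140, or 18.2%, beside 16.3% of all listed features with a symbol. On the log2(FPKM + 1) scale, which shrinks the differences of low genes, 3 of the 8 (Myo7b, Dynlt1f and Ift122) still reached the limit, and Kif9, Cep290, Cep135, Cep164 and Ift140 did not. Of the 4 higher genes, 3 reached it on that scale, and Myo18b, at 0.52, did not. With the median difference subtracted, the split was 0 higher and 23 lower. Ift140, at -0.59, was the nearest gene inside this limit and Macf1, at 0.57, the nearest outside it, and rounding alone can move such a difference by 0.01.

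The families differed in how many of their genes were listed. The name rule matches 211 protein-coding genes of the GENCODE annotation, of which 44, or 20.9%, are in the table. Over all annotated protein-coding gene symbols the share was 11.1%. Of 14 genes with an Ift symbol, 7 were listed, and the other families with more than 10 genes had shares from 15.4% for kinesins to 26.7% for microtubule-associated proteins and stathmins. None of the 9 spectrins and ankyrins, the 4 nesprins or the 3 filamins was listed. These shares also depend on expression, since a gene that the cells do not transcribe cannot be called.

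**Figure D2:**
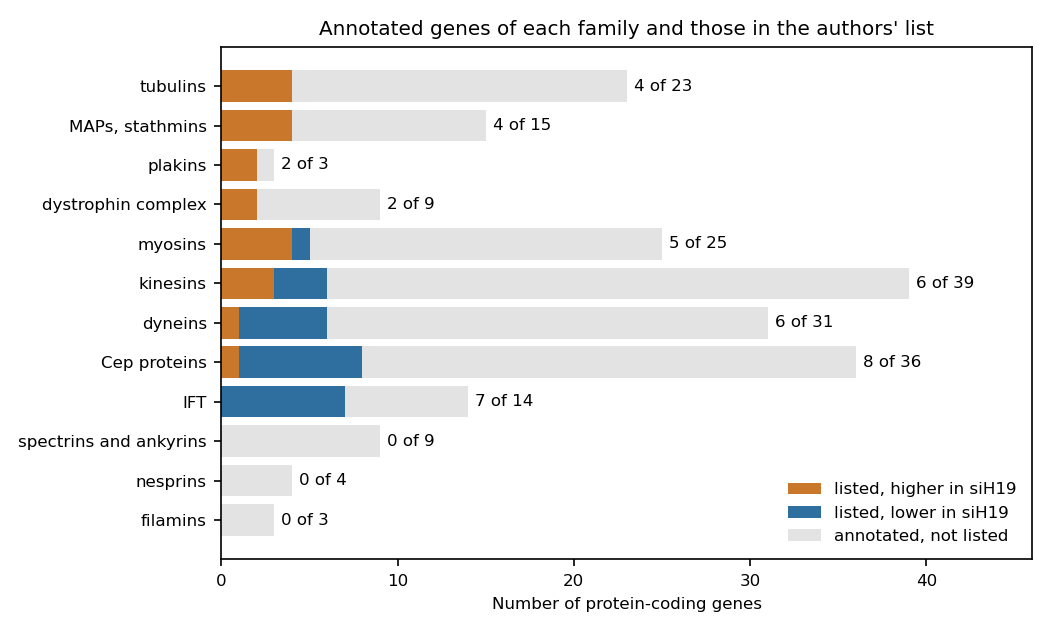
Number of annotated protein-coding genes in each family, divided into those listed as higher in siH19 (orange), listed as lower (blue) and not listed (grey), with the listed number and the total beside each bar. IFT has 7 of 14 genes listed and every one lower, while spectrins and ankyrins, nesprins and filamins have none listed.

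The 7 IFT genes had differences from -0.65 to -0.36, with a median of -0.56. Within IFT-A, the complex needed for return transport, Ift122 had 3.95 on the log2 FPKM scale in siCon and 3.30 in siH19, or 63.7% of the siCon level. Its feature carries more than 1 gene symbol, so its value may hold reads of another gene. Ift140 stood at 2.89 in siCon and 2.30 in siH19, or 66.4%. Both IFT-A genes were thus lower by a similar factor.

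Within IFT-B, the complex that carries cargo towards the tip, Ift74 was the most abundant listed IFT gene, at 5.29 on the log2 FPKM scale in siCon and 4.73 in siH19. Ift88, whose loss abolishes cilia in mice, stood at 3.0 and 2.44, and both genes were at 67.8% of their siCon levels. Ift80 went from 3.69 to 3.24, Ift57 from 3.91 to 3.49 and Ift81, the partner of IFT74 in tubulin binding, from 3.99 to 3.63. Summed over the 7 genes, IFT transcripts amounted to 114 FPKM in siCon and 79.8 FPKM in siH19. The siH19 sum was thus 0.701 of the siCon sum.

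Other listed genes of the same machinery, grouped into complexes after the values were seen, had values in the same direction. Of all 2549 listed features with a symbol, 1016 were lower. Ttc21b and Wdr35, both IFT-A subunits, differed by -0.48 and -0.47. With them, 4 of the 6 IFT-A genes were listed, with a median difference of -0.53. Of 13 genes counted for IFT-B, 5 were listed, with a median of -0.45. Of 7 genes counted for the BBSome, the coat complex that carries membrane proteins out of cilia, 4 were listed. They were Bbs1 (-0.47), Bbs4 (-0.55), Bbs5 (-0.50) and Ttc8 (-0.34). The counts for IFT-B and the BBSome may leave out subunits. Dync2li1, a member of the 44 genes and the light intermediate chain of the dynein 2 motor that drives return transport, stood at 4.73 in siCon and 4.17 in siH19. None of the kinesin-2 genes Kif3a, Kif3b, Kif3c, Kif17 and Kifap3 was listed, so the outward motor has no value here.

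Because the 7 listed IFT genes shared a direction, the starts of the 4 that have a window are shown. RFX factors are known to bind the X-box, an inverted repeat in promoters of many cilium genes, an arm of which reads GTTGCC. The RefSeq windows of GRCm38.p6, the assembly also called mm10, run from 250 bases before to 50 after each annotated start, and 29 of the 44 genes had such a window, with 34 windows in all. Capitals in the next 4 windows mark GTTGCC or its reverse complement GGCAAC. The Ift57 window (chr16:49699044-49699343, plus strand) holds 2 copies, the first bases of which lie at -87 and -60 from the start. The Ift140 window (chr17:25015836-25016135, plus strand) holds 1 copy at -109, and the Ift88 window (chr14:57423821-57424120, plus strand) 1 copy at 22 bases into the transcript. The Ift74 window (chr4:94614241-94614540, plus strand) holds none.
Ift57: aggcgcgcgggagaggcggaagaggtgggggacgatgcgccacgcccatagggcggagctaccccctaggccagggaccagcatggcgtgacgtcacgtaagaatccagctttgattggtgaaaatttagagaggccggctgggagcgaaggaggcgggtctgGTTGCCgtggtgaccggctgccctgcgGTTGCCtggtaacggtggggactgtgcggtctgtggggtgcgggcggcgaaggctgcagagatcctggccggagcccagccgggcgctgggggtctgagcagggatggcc
Ift140: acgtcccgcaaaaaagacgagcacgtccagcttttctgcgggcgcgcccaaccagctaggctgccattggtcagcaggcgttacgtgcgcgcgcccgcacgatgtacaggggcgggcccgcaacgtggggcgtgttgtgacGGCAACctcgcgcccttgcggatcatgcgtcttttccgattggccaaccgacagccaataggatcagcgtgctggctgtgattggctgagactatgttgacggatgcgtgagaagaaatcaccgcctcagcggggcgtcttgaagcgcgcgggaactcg
Ift88: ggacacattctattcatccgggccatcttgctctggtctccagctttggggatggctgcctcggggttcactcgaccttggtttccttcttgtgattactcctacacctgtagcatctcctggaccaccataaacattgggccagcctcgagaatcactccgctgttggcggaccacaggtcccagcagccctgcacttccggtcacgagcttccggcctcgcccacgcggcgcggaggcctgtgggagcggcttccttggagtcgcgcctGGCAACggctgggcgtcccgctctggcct
Ift74: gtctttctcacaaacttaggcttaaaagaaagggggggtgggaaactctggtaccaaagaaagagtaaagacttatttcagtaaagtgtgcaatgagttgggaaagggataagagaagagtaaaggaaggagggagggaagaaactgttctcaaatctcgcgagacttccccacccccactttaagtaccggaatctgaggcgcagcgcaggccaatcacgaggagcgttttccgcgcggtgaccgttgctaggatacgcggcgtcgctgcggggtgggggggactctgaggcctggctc

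The hexamer, searched on both strands, was found in 12.5% of all 32851 RefSeq windows. It was in 8 of the 17 windows of genes lower in siH19 (Cep164, Cep19, Dync1i1, Ift140, Ift57, Ift88 and Kif9, the last of which has more than 1 window) and in 2 of the 17 windows of genes higher in siH19 (Map1b and Myo18a). The paired form, in which GTTNCC is followed after 0 to 3 bases by GGNAAC and which can overlap the hexamer, was in 0.804% of all windows and in those of Cep19 and Ift57. The lower genes include every listed IFT gene and most listed Cep genes, families of the cilium. The contrast between lower and higher genes therefore cannot be told apart from the families on each side. Windows of cilium genes absent from the list were not counted separately. A match describes letters in a window and not binding.

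Cep genes encode proteins of the centriole, its appendages and the base of the cilium, and 7 of the 8 listed among 36 were lower. Cep290, a protein of the transition zone at the base of the cilium that is mutated in several ciliopathies, had 2.97 on the log2 FPKM scale in siCon and 2.31 in siH19 (63.3% of siCon), in a feature on chromosome 10 from 100487437 to 100589259. Cep164, which sits on the distal appendages by which the mother centriole docks to the membrane, stood at 3.08 and 2.48. Cep135, a protein of the centriole wall, stood at 2.44 and 1.82. These 3 genes stood at 63.3% to 66.0% of siCon. They were set apart by the 1.5-fold limit, so the upper bound of that share was fixed in advance.

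The other Cep genes that were lower had smaller differences. They were Cep89 of the distal appendages (-0.43), Cep250 of the linker between centrioles (-0.41), and Cep76, which limits centriole duplication (-0.35). Cep19, which helps IFT proteins reach the ciliary base, had the highest siCon level of the listed Cep genes, at 3.78, and stood at 3.41 in siH19.

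Further genes of the centrosome and cilium, taken from a list of 41, were listed in 10 cases, 9 of them lower. Tmem67, a membrane protein of the transition zone, had the largest of these differences (-0.69), followed by Bbs4. Odf2 (-0.48), a protein of the appendages, was lower as well. The exception was Rpgrip1l, also of the transition zone, with a difference of 0.33, which turned negative when the median was subtracted. Large scaffold genes of the list, such as Pcnt, Pcm1 and Cdk5rap2, were not listed.

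Dyneins move cargo towards the minus ends of microtubules, and 5 of 6 listed genes were lower. Dync1i1, an intermediate chain that links the cytoplasmic motor to dynactin, stood at 4.07 on the log2 FPKM scale in siCon and 3.57 in siH19. Dynlt3, a light chain and the most abundant dynein gene of the list, stood at 6.89 and 6.57, and Dynlt1b, another light chain, at 3.21 and 2.78. The light chain gene Dynll2, whose product also serves as a hub for other proteins, was the exception at 3.70 and 4.08, and turned lower when the median was subtracted. Summed over the 6 listed genes alone, dynein transcripts amounted to 185 FPKM in siCon and 149 FPKM in siH19. Dynlt3, at 119 and 95.0 FPKM, supplied most of both sums, which also hold the feature named Dynlt1f. The heavy chain gene Dync1h1 and the 15 axonemal heavy chain genes named Dnah were not listed.

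The feature named Dynlt1f had the lowest difference after Myo7b, with values from a log2 FPKM of 0.31 to -1.77, which is 23.7% of the siCon level. Its locus (chromosome 17, 6601671 to 6607899) does not overlap the annotated Dynlt1f gene (6646602 to 6655900). It starts at the base at which the annotated Dynlt1c gene begins (6601671 to 6609774). Dynlt1b, Dynlt1c and Dynlt1f are close copies in 1 cluster, so reads may have been split between them and the gene behind this value is uncertain.

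Kinesins, which mostly move towards plus ends, were divided evenly, with 3 genes higher and 3 lower, and with the median subtracted Kif13a alone stayed above 0, by no more than the rounding of 0.01. Kif5b, the widely expressed conventional kinesin heavy chain that in muscle moves nuclei and mitochondria, was the most abundant of the 6, at 7.24 on the log2 FPKM scale in siCon and 7.59 in siH19. Its paralog Kif5c, known mainly from neurons, differed in the opposite direction, from 2.70 to 2.25. The vesicle motor Kif13a stood at 3.45 and 3.87 and its relative Kif13b differed by 0.37, whereas Kif21a, which slows microtubule growth at the cortex, differed by -0.47. Kif9, a kinesin of motile cilia (chromosome 9, 110476844 to 110525174), was at 46.3% of its siCon level, from 1.43 to 0.664 FPKM. Because Kif5b outweighs the rest, the 6 kinesins summed to 182 FPKM in siCon and 225 FPKM in siH19 while their median difference was -0.05. None of 11 kinesins of mitosis, such as Kif11, Kif20a and Kif23, was listed.

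Of 23 genes for tubulins and the gamma-tubulin complex, 4 were listed and 19, such as Tuba1a and Tubb5, have no value here. The 4 had the largest sum among the listed genes of each family (410 FPKM in siCon) and were higher before the median was subtracted, after which Tubb6 and Tuba4a stayed higher and Tubb3 and Tubb4b did not. Tubb6, a beta tubulin that is known to be raised in regenerating and dystrophic muscle, had 7.54 on the log2 FPKM scale in siCon and 8.49 in siH19, or 186 and 360 FPKM. Tuba4a, an alpha tubulin that is encoded without its terminal tyrosine, stood at 6.14 and 6.69. Tubb4b, a beta tubulin found in many tissues, stood at 7.02 and 7.38, and Tubb3, best known from neurons, at 4.53 and 4.90. The 4 genes summed to 410 FPKM in siCon and 659 FPKM in siH19, and Tubb6 supplied most of that gap. Tubulin genes share long stretches of sequence, so reads may have been divided between members, and the locus of Tubb6, Tuba4a and Tubb4b runs more than 1 kb past the annotated gene.

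The 4 listed genes with a Map or Stmn prefix that the name rule takes in had log2 differences from 0.33 to 0.41, and none stayed higher after the median was subtracted. Map2 (-1.17) and Map9 (-0.96), which also encode microtubule-binding proteins but lie outside the rule, were lower. Map4, the main microtubule-associated protein outside neurons, which has a muscle isoform needed for myotube formation, stood at 6.85 on the log2 FPKM scale in siCon and 7.26 in siH19. Map1b stood at 5.96 and 6.29 and Stmn2, a protein that binds free tubulin, at 4.31 and 4.67. Map1lc3b, which the name rule takes in through its prefix, encodes the autophagy protein LC3B and stood at 6.40 and 6.81. The end-binding genes Mapre1, Mapre2 and Mapre3 and the stathmin gene Stmn1 were not listed.

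Plakins, giant linkers between actin, microtubules and intermediate filaments, were higher in the 2 listed cases with or without the subtraction of the median. Macf1, which is known to hold microtubules around myonuclei, stood at 7.24 on the log2 FPKM scale in siCon and 7.81 in siH19, or 151 and 224 FPKM, over a feature of chromosome 4 from 123349484 to 123687256. Dst (dystonin) stood at 5.95 and 6.45. Plec (plectin) was not listed.

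**Figure D3:**
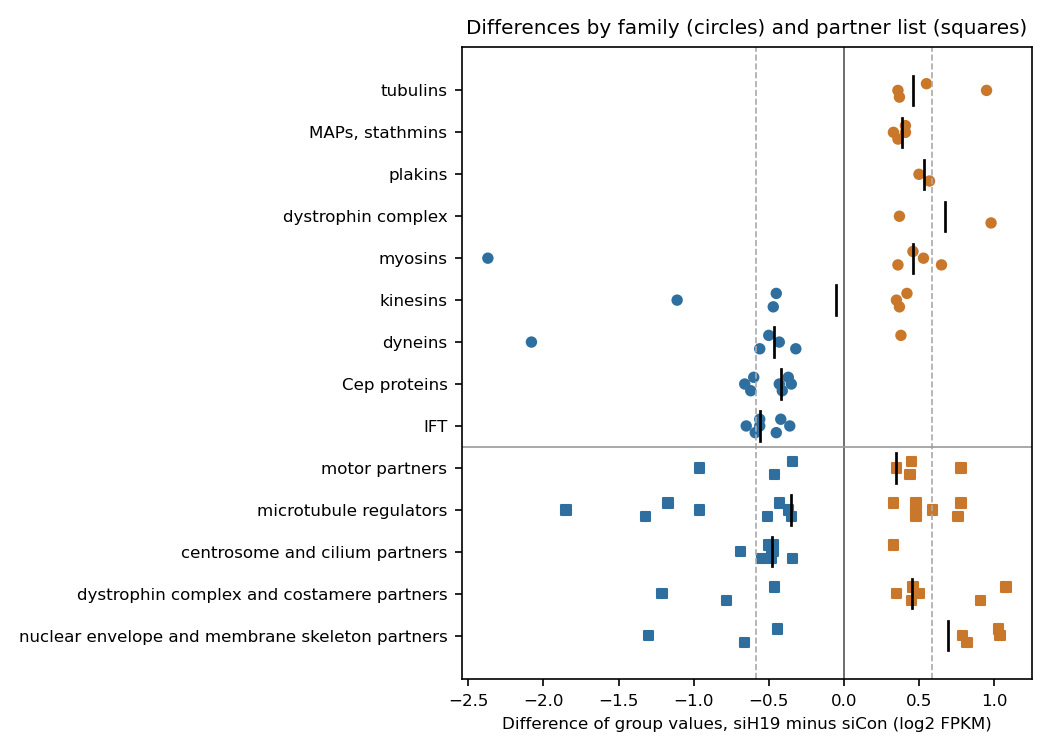
Difference of the group values, siH19 minus siCon in log2 FPKM, for each gene of the 9 families with a listed gene (circles) and of 5 lists of partner genes (squares). Black bars are medians over every listed gene of a row, 4 genes are not drawn, and dashed lines mark 1.5-fold. Genes of IFT and of the cilium partner list lie left of 0 apart from Rpgrip1l, and tubulins, microtubule-associated proteins (MAPs), plakins and the dystrophin complex lie right of it before the median of 0.41 is subtracted.

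Dystrophin had the largest higher difference of the 44 genes. Dmd, the gene of Duchenne muscular dystrophy, encodes the long rod that links cortical actin to the dystroglycan complex in the membrane. It stood at 2.23 on the log2 FPKM scale in siCon and 3.21 in siH19, or 4.69 and 9.25 FPKM, which is 1.97-fold. The feature spans 2256 kb (chromosome X, 82948759 to 85205050) and starts near the annotated 5′ end of the gene. Among all listed features with a symbol, 259 had a difference at least as high. Sgcb (beta-sarcoglycan), a membrane protein of the same complex, stood at 5.86 and 6.23 and turned lower when the median was subtracted. Utrn, Dtna and the genes of the other sarcoglycans were not listed.

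The start of Dmd is shown because this gene had the highest difference among genes higher in siH19 and because serum response factor is known to act on its muscle promoter through a CArG box. Capitals mark the matches to the MEF2 site, with its first base at -244, and to the CArG box, at -98, in the RefSeq window that lies nearest to the 5′ end of the feature (chrX:82948620-82948919, plus strand, GRCm38.p6).
Dmd: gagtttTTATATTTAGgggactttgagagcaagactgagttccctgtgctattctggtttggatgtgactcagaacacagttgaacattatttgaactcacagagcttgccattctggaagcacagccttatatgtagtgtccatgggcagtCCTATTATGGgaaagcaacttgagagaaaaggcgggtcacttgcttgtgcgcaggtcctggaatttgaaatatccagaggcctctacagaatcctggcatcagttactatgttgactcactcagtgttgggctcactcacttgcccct

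The CArG box was found in 1.63% of all RefSeq windows and, among the 34 windows of the 44 genes, in that of Dmd alone. The MEF2 site was in 3.19% of all windows, and among the 34 in those of Dmd and Cep164. The E-box CAGCTG, which reads the same on both strands, was in 16.3% of all windows. It was in 4 of 17 windows of genes higher in siH19 (Map1lc3b, Map4 and Myo18a) and in 1 of 17 of genes lower (Dynlt3). The related CACCTG, searched on both strands, was in 20.2% of all windows. It was in 6 of the 17 (Dst, Macf1, Map1lc3b, Map4 and Tuba4a) and 4 of the 17 (Cep135, Ift88, Kif21a and Kif5c). A gene with more than 1 window can be counted more than once.

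Partners of dystrophin and of the costamere, the membrane anchor over the Z disc, were listed for 10 of 41 genes, 7 higher, of which Itgb1 turned lower when the median was subtracted, and 3 lower. Dag1, the dystroglycan precursor, differed by 0.46 and Sntb1, a syntrophin, by 0.50, beside Dmd at 0.98. Sspn, which packs the sarcoglycans against dystroglycan, differed by -0.46. Ldb3, a Z disc protein, differed by 0.91. Tln1 (talin, 0.45) and Itgb1 (beta 1 integrin, 0.35), which form the second link to the matrix, were higher, whereas Lims1 (-0.78) and Krt19 (-1.21) were lower. Nos1 differed by 1.08 but stayed at a log2 FPKM below 0 in both groups.

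The listed genes of the myosin superfamily outside the sarcomere were 4 higher and 1 lower, and Myo9a also turned lower when the median was subtracted. Myo18b, a striated muscle myosin that is needed for sarcomere assembly, stood at 1.64 on the log2 FPKM scale in siCon and 2.29 in siH19. Its relative Myo18a, the most abundant of the 5, stood at 5.33 and 5.79. The membrane-bound Myo1d differed by 0.53 and Myo9a, which also acts on small GTPases, by 0.36. Myo7b, a myosin of intestinal microvilli, had the lowest difference of the 44 genes, with 1.06 FPKM in siCon and 0.206 FPKM in siH19 (chromosome 18, 31959234 to 32036931). Myo7b, Dynlt1f and Kif9 were the 3 genes below 1 FPKM in siH19, and no gene of the 44 was below 1 FPKM in siCon.

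**Figure D4:**
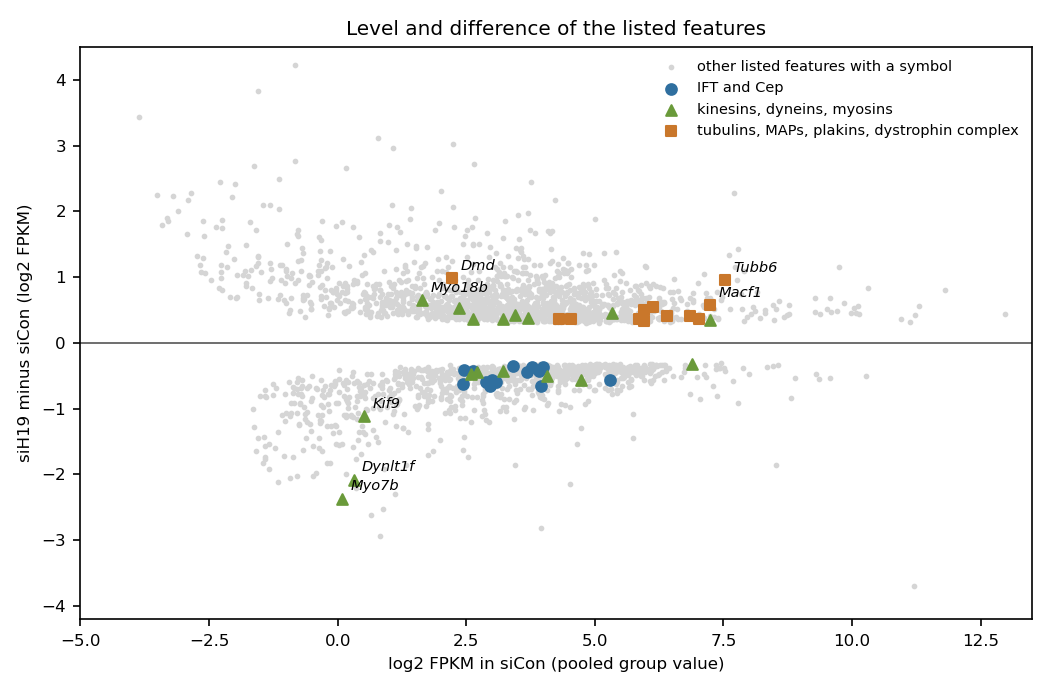
Difference of the group values (siH19 minus siCon, log2 FPKM) against the log2 FPKM in siCon for listed features with a symbol (grey) and for 43 of the 44 genes (coloured by family). No feature lies within 0.31 of 0, because the table holds called features alone; Tubb6 and Macf1 are at the abundant end and Myo7b, Dynlt1f and Kif9 at the low end.

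Genes higher and lower in siH19 differed in level. The 21 higher genes had a median log2 FPKM of 5.33 in siCon, from 1.64 to 7.54, and 11 of them were at 5 or more. The 23 lower genes had a median of 3.08, from 0.09 to 6.89, and 2 of them, Dynlt3 and Ift74, were at 5 or more. Over all listed features with a symbol, 19.1% of the higher and 17.3% of the lower features were at 5 or more. The longest annotated transcript had a median of 6032 nt for the higher genes and 3576 nt for the lower genes. These are descriptions of listed genes, and the part of abundance and length in them was not tested.

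Regulators of microtubules outside the name rule were divided, with 15 of 62 genes listed, 7 higher, of which Mid1 turned lower when the median was subtracted, and 8 lower. The lowest difference was that of Tppp3, which promotes tubulin polymerization, with values from 8.52 on the log2 FPKM scale in siCon to 6.67 in siH19 (27.7% of siCon). Katnal2 (-1.32), a katanin-like protein, and Trim63 (-0.51), a ubiquitin ligase of muscle atrophy, were lower too, as were Map2 and Map9. Vash2 (-0.43), which removes the terminal tyrosine of tubulin, Tbcb (-0.37), a tubulin cofactor, and Ttll1 (-0.35), which adds glutamate chains, had smaller differences. Higher values were found for Tacc2 (0.78), Dclk1 (0.76), Tbcd (0.59, in a feature shared with Fn3k), the plus-end proteins Clasp1 and Clasp2 (0.48 each), Ttll12 (0.48) and Mid1 (0.33).

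Partners of motors were listed for 7 of 31 genes. The kinesin light chain genes Klc3 and Klc4 differed by -0.96 and -0.46, and the dynein regulator Nudc by -0.34. Actr1b, a subunit of dynactin, differed by 0.78, Trak1, the mitochondrial adaptor of KIF5B, by 0.45, Kifc3 by 0.44 and Bicd2, a dynein adaptor, by 0.35. Motor partners therefore had no common direction, and Bicd2 turned lower when the median was subtracted.

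Genes of the nuclear envelope and membrane skeleton were listed in 8 of 33 cases, 5 higher and 3 lower. Obsl1 (1.04), a cytoskeletal adaptor, was higher, as were Slc4a3 (1.03), Rdx (0.82), which links actin to the membrane, and Tmod1 (0.79), which caps actin pointed ends. Add2 (-1.30), a partner of spectrin, Ezr (-0.66), a relative of Rdx, and Lmnb2 (-0.44), a lamin, were lower. Rdx and Ezr, which belong to 1 family, thus had values in opposite directions. The LINC genes Sun1 and Sun2, which pair with nesprins, and Lmna were not listed.

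How the features were assembled limits single values. The locus of 43 of the 44 genes overlaps the annotated gene, but 14 of these 43 run more than 1 kb past it at 1 end or both, and 11 genes share exon sequence with a gene on the opposite strand. The kit keeps strand, but whether strand was used when reads were counted is not given in the sources used here.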

How the data were processed

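RNA-seq libraries of 3 siCon and 3 siH19 C3H myotube samples were made by the authors from rRNA-depleted total RNA. Reads were aligned by the authors to mm10 with TopHat (app version 1.0.0), Cufflinks was used for assembly and Cuffdiff 2.1.1 for the comparison, and the submitters' processing notes also name TopHat2 2.0.7. The annotation is not given in the sources used here. The authors deposited log2 FPKM values, 1 per group and feature, pooled over 3 libraries. Their columns of fold changes and q-values for the same comparison were not used, and all 3019 features are marked significant. No per-library value was analysed, so depth and replicate spread are unknown.

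Differences were computed here as siH19 minus siCon. Members were taken by symbol. The members and the lists of partner genes were chosen with earlier results of these data known, and the complexes and muscle genes after the values were seen. Any member could be named, and those at 1.5-fold or more, the most abundant and the most changed of each family were described with both levels. The table counts start positions from 0, and 1 was added to each (7 members then start at the annotated base). Genes were matched to GENCODE M21 (GRCm38). Promoter windows are RefSeq's (GRCm38.p6). For 15 members no window was matched (among them Cep76, Dynll2, Dynlt1b, Dync2li1, Ift81, Ift80, Ift122, Kif13b, Kif5b, Stmn2, Myo18b, Myo1d, Myo7b and Tubb6). Python 3.11.15, numpy 2.4.6, pandas 2.3.3 and matplotlib 3.10.9 were used, and the member search and counts were tested on simulated data. Values of 1 member and of a few partner genes are not reported here.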

Additional observations from a re-analysis of the deposited data

How the results depend on the processing

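With a limit of 0.322 on the log2 scale in place of 0.585, 21 members were higher and 22 lower, and with 2-fold 0 were higher and 3 lower. With log2(FPKM + 1) in place of log2 FPKM, 3 members were lower at 1.5-fold. Every one of the 44 members kept its direction on that scale, with a median shift of 0.032 and a largest shift of 1.59 for Myo7b. Subtracting the median difference of all listed features with a symbol, 0.41, left 0 members higher and 23 lower at 1.5-fold, and 10 higher at any size. The other counts stayed within 1.5 times their value. All 44 members reach 1 FPKM in at least 1 group, so the filter on low values removed none, and leaving out the feature of Ift122, which carries more than 1 symbol, did not move a count by more than 1.5 times. No paired analysis was possible because the deposited values are pooled over the libraries of a group. For the same reason no library could be left out in turn, and a departure of a single library cannot be told apart from a difference between the groups. Depth limits cannot be given.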

Other observations

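Members that neighbour each other in the genome within 1 Mb did not share a direction in 2 of 3 cases, and with the median of 0.41 subtracted Tubb6 and Cep76 alone still had opposite directions, since Map4 then stood at 0. Map4 and Kif9, 359 kb apart on chromosome 9, differed by 0.41 and -1.11. Tubb6 and Cep76, 213 kb apart, differed by 0.95 and -0.35. Dynlt1b and the feature named Dynlt1f, 165 kb apart, were both lower, by -0.43 and -2.08.

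The paralogs Kif5b and Kif5c had differences of 0.35 and -0.45, and both were lower when the median of 0.41 was subtracted. No difference between genes was tested, since 1 value stands for each group.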
